A study of Mus musculus with 13 samples.

Results

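Reporter-negative mouse embryonic stem cells (ESC) were compared with reporter-negative cells of day 7 embryoid bodies, the cell clusters that ESC form when they are left to differentiate in suspension. The arrays were chosen by their titles: 3 arrays of Stella-negative ESC and 2 arrays of Stella-negative day 7 cells, 5 of the 13 arrays in the series. The cells carry a green fluorescent protein reporter of Stella, the protein made by Dppa3, and all 5 samples lacked its fluorescence in the sort. The submitters' labels add that the day 7 sample is not germ cells. Stella-positive ESC (n = 2), Stella-positive day 7 cells (n = 4) and unsorted ESC (n = 2) entered the same model and served as points of reference. The sources used here do not give the ESC line, strain, medium, feeder layer or the way the reporter was built. They do not say that replicates are separate cultures either, so the p-values describe the spread of these arrays, some or all of which may be technical.

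Embryoid bodies form an outer layer that resembles the visceral endoderm of the early embryo, which secretes plasma proteins such as transthyretin and alpha-fetoprotein before a liver exists. Inside, mesoderm gives rise to blood islands with primitive red cells, which make embryonic globins, to endothelium and to heart muscle. Pluripotency factors such as Pou5f1 are lost as cells leave the stem cell state. Stella is made by naive stem cells and by germ cells. A reporter-negative sort therefore keeps the somatic derivatives, and also any pluripotent cells that lack the reporter.

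Values are scaled array signals: each array was brought to the same trimmed mean (2% trimmed from each end). Differences are given as log2(signal + 10.5), day 7 minus ESC, with the standard error (SE) of the linear model in limma, and a gene was called when its adjusted p was under 0.05. The added constant shrinks the difference of dim genes. Pearson correlations of log2 signal were 0.965 to 0.971 among the ESC arrays, 0.923 between the day 7 arrays and 0.776 to 0.801 between the groups. All 3 ESC arrays were hybridised in 1 run with 1 chip lot, and the day 7 arrays in 2 other runs with another lot and another project label. The stage and the hybridisation therefore cannot be told apart. ESC array 2 stood apart from the other ESC arrays for genes of the primitive streak, and values without it are given there. The actin 3'/5' control ratio, a measure of RNA integrity, was 1.12 to 1.17 on the ESC arrays and 5.48 and 5.85 at day 7, and the Gapdh ratio was 0.803 to 0.869 against 3.03 and 3.18. The part of RNA integrity in the differences below was examined only by adding these ratios to the model as covariates, and the counts under the actin and then the Gapdh ratio are given with the gene groups. Within groups the actin ratio varied mainly among the Stella-positive day 7 arrays (2.04 to 5.16), so the fitted slope rests largely on them. The counts therefore extrapolate to the negative arrays, and they cannot measure the part of RNA integrity, because ratio and stage go together.

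Of 14007 genes tested, 2648 were higher at day 7 (18.9%) and 2247 were lower (16.0%). Counts of the gene lists below are to be read beside these shares, and several lists lie near them. Members dim in ESC were tested only through arrays where they were high, which favours counts of rises in every list. Ttr, Hbb-y, Hand2 and Tnnt2, for example, were above the array's own median on 0 negative ESC arrays and on both negative day 7 arrays. The list medians cover members that were not tested too. At least 2-fold differences were called for 2101 genes upward and 1439 downward. The arrays of the 2 groups did not overlap for 2645 of the genes called higher and 2244 of those called lower. A call itself favours such separation, so this is no further support. Of the 2645, 2280 (86.2%) were above all 4 Stella-positive and unsorted ESC arrays, and of the 2244, 1835 (81.8%) were below them. Those 4 arrays are outside the contrast but entered the model's estimate of spread. The same day 7 values had chosen these genes, and neither share was counted over all tested genes. The rises reached further than the falls, with 35 genes at 16-fold or more upward and 2 downward.

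The share of rises among the calls depended on how the arrays were brought to a common scale. It was 54.1% with the trimmed mean and 47.6% with quantile normalization, but 13.6% with median scaling, which moved the median of the tested genes from 0.18 to -0.49. After trimmed mean scaling, the median signal was 22.6 to 28.3 on the ESC arrays and 45.2 and 42.3 at day 7. Leaving out day 7 array 1 left 2633 genes called and leaving out day 7 array 2 left 3067, against 4895 with both. With the actin ratio as a covariate 1597 genes were called, 1128 of them among the 4895 with the same sign, and with the Gapdh ratio 1353, of which 633.

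**Figure D1:**
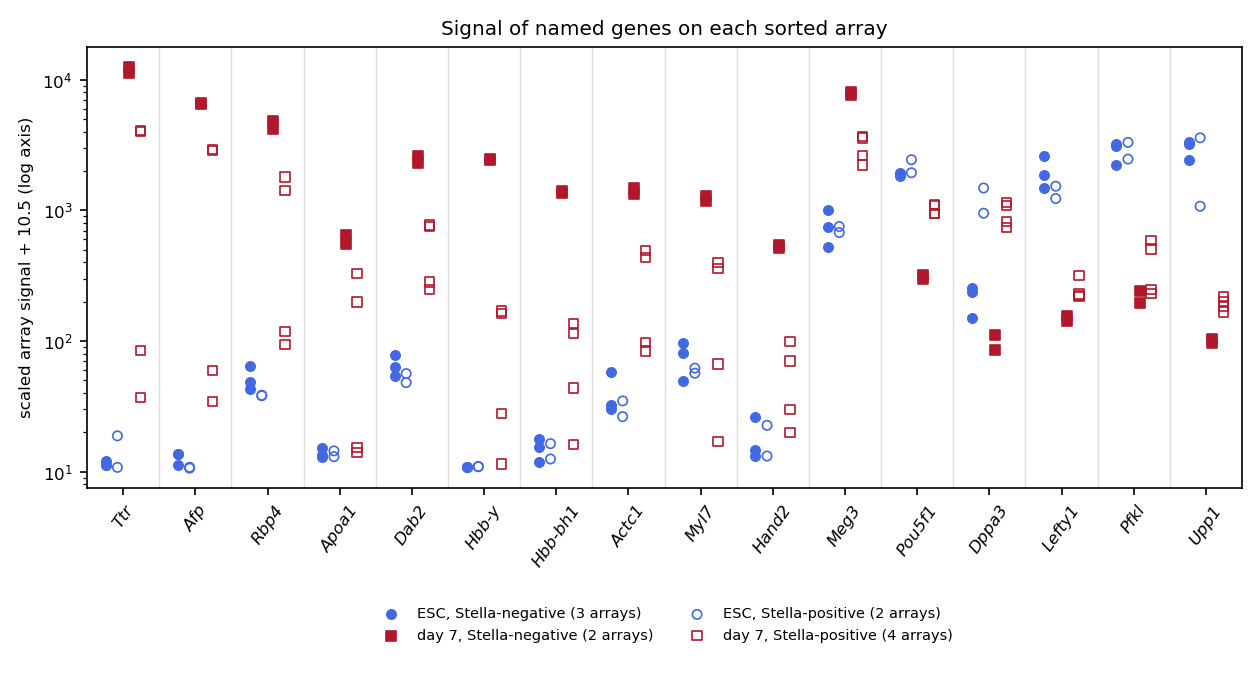
Scaled signal plus the constant of 10.5 (log axis) of 16 named genes on each sorted array. Filled circles are the 3 Stella-negative ESC arrays, filled squares the 2 Stella-negative day 7 arrays, and open symbols the Stella-positive arrays. Ttr reaches 11349 and 12504 on the negative day 7 arrays from at most 1.45 on the negative ESC arrays, while Pou5f1 falls to 289.5 and 309.

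The largest rises of all genes called were those of Ttr and Afp, products of yolk sac and fetal liver. Ttr encodes transthyretin, the carrier of thyroid hormone and of retinol-binding protein. Its signal was 0.721, 1.45 and 0.702 on ESC arrays 1, 2 and 3 and 11349 and 12504 on day 7 arrays 1 and 2, a log2 difference of 10.02 ± 1.41 (adjusted p = 7.00e-05), and all 4 of its probe sets rose. Afp, the alpha-fetoprotein of yolk sac and fetal liver plasma, went from 3.17, 0.674 and 3.25 to 6475 and 6664, a difference of 9.0 ± 1.36 (adjusted p = 0.000130). The 2 day 7 arrays lay close together for both genes and far from every ESC array. The model takes 1 spread per gene over all 5 groups, and the Stella-positive day 7 arrays, at 4072, 4029, 26.4 and 73.7 for Ttr, differed among themselves. In sorted bulk samples such as these, more cells of a type and more RNA per cell cannot be told apart, nor can fewer cells and less RNA.

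Rbp4, the retinol-binding protein of plasma, rose from 37.8, 54.0 and 32.4 to 4223 and 4866, or by 6.47 ± 0.90. Apoa1, the main apolipoprotein of high-density lipoprotein, rose from 2.96, 4.55 and 2.52 to 542 and 637, or by 5.43 ± 0.99. The list of yolk sac and liver secreted proteins and their receptors had 17 of its 18 genes on the array, and 12 of the 14 tested rose while 0 fell. The median difference of the 17 was 3.04, beside 0.29 for all 18193 genes on the array. Its count was 12 without each of the 5 arrays in turn and 12 with median scaling, and it was 11 and 9 with the actin and Gapdh ratios as covariates.

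Regulators of the endoderm rose as well. Dab2, an endocytic adaptor of the visceral endoderm, went from 43.2, 67.4 and 53.1 to 2287 and 2585, a difference of 5.25 ± 0.43 (adjusted p = 7.65e-07). Hnf4a, the nuclear receptor that drives the liver and visceral endoderm program, went from 12.1, 9.98 and 9.70 to 248 and 244 (3.61 ± 0.59). Sox17 and Foxa1, transcription factors of endoderm, rose by 3.47 ± 0.73 and 3.39 ± 0.57. In all, 10 of 11 tested members of the endoderm regulator list rose and 0 fell, with a median over its members of 2.15. The list's count was 7 to 10 when each array was left out in turn, 6 with median scaling, and 6 and 5 with the 2 covariates. Sox17 had 36.1, 89.4 and 6.39 on the ESC arrays, highest on ESC array 2.

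Several of the 12 largest rises were in no list. S100g, the calcium-binding protein calbindin-D9k, went from 0.774, 0.773 and 1.80 to 622 and 644 (5.79 ± 0.68). Spink1, a secreted trypsin inhibitor, went from 124, 149.9 and 208 to 6670 and 6748 (5.32 ± 1.02). Ctsh, a lysosomal cysteine protease, rose by 5.28 ± 0.44, and Tmprss2, a membrane serine protease, by 5.48 ± 0.63. Selenop, the selenium carrier of plasma, went from 83.8, 112 and 98.8 to 5408 and 5497 (5.66 ± 0.45). The 12 were chosen from called genes whose day 7 and ESC arrays did not overlap, so that separation is no further support.

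Epithelial keratins and junction proteins moved in part. Dsg2, a desmosomal cadherin, went from 187, 183 and 104 to 1030 and 1084 (2.71 ± 0.23). Keratins Krt18 and Krt8, the first keratins of the embryo, rose by 2.45 ± 0.68 and 2.0 ± 0.57, although both calls were lost without ESC array 3 or without either day 7 array. Grhl2, an activator of epithelial genes, rose by 1.77 ± 0.31. Cdh1, which encodes E-cadherin and is made by ESC themselves, had 1526, 1391 and 1462 in ESC and 1288 and 1359 at day 7 and did not pass the test (-0.14 ± 0.31). Of 19 tested members 10 rose and 1 fell, the protease inhibitor Spint2 (-0.83 ± 0.30), whose call was lost without any 1 of the 5 arrays. The list's median was 0.69 with the trimmed mean and -0.08 with median scaling, under which 1 member rose. Its count of rises was 4 without either day 7 array, and 10 and 11 with the covariates.

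Basement membrane genes did not rise as a group: 3 of 12 did and 1 fell, with a median of 0.20 (-0.54 with median scaling), and 3 and 1 rose with the covariates. The chains of collagen IV, the network-forming collagen of basement membranes, rose, Col4a1 from 313, 383 and 200.2 to 2025 and 2166 (2.81 ± 0.38) and Col4a2 by 2.17 ± 0.46. Sparc, a matrix glycoprotein made by parietal endoderm, rose by 2.0 ± 0.30 to 1891 and 2026, values that unsorted ESC spanned at 2271 and 951. Nid2, a linker of laminin and collagen IV, fell from 947, 719 and 694 to 266 and 261 (-1.53 ± 0.28). Fn1, fibronectin, had 2845, 3513 and 3288 in ESC and 3319 and 3583 at day 7, groups that overlap.

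Embryonic globins rose from background. Hbb-y, the embryonic beta-like globin of primitive red cells, had 0.328, 0.297 and 0.311 on the ESC arrays and 2406 and 2470 at day 7, a difference of 7.82 ± 0.82 (adjusted p = 5.20e-06). Its neighbour in the beta globin cluster, Hbb-bh1, went from 4.93, 1.27 and 7.30 to 1344 and 1387 (6.54 ± 0.65). The embryonic alpha-like globin Hba-x went from 12.3, 11.3 and 7.74 to 313 and 317 (3.96 ± 0.60). Each of the 3 genes was dim on every ESC array, and all 3 probe sets of Hbb-y and all 3 of Hbb-bh1 rose. Because globins of a cluster are similar in sequence, some of their probe sets may share transcripts.

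Other erythroid genes were lower in signal. Runx1, the transcription factor needed for definitive blood, rose from 36.9, 38.9 and 16.8 to 174 and 147 (2.10 ± 0.38). Epor, the erythropoietin receptor, had 85.1, 69.6 and 54.6 in ESC and 26.1 and 60.1 at day 7 and did not pass. The adult alpha globin Hba-a1 and the erythroid regulator Gata1, chosen after their values were seen, did not pass either, at 0.62 ± 0.60 and 0.54 ± 0.44. Of 11 tested members 6 rose and 0 fell, and the median of the 14 on the array was 1.03. That count was 4 or 5 without 1 of the arrays, 4 with median scaling and 3 with each covariate.

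The promoters of a pair of globins and a pair of cardiac genes that rose are shown because GATA factors act in both blood and heart. The sequences are from RefSeq on GRCm38.p6 and hold the 300 bases around the start of transcription, 5′ to 3′ on the gene's strand. Capitals mark each GATA, its reverse complement TATC, and TATAAA or its reverse complement TTTATA, none of which overlap here. Hbb-y lies at chr7:103853158-103853457 on the minus strand, Hba-x at chr11:32276350-32276649 on the plus strand, Actc1 at chr2:114052826-114053125 on the minus strand and Tnnt2 at chr1:135836084-135836383 on the plus strand, the first of its 2 entries.
Hbb-y: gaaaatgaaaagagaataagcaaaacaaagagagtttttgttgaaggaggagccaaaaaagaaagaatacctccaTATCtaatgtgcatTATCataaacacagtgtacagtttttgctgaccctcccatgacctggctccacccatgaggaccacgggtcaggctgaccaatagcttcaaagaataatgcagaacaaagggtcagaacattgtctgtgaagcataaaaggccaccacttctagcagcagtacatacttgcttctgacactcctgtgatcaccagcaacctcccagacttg
Hba-x: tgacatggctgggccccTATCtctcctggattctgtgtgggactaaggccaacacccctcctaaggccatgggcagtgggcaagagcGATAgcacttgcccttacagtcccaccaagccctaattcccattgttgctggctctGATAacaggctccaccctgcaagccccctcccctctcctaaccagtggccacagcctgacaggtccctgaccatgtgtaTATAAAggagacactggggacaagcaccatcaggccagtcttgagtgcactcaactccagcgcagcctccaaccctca
Actc1: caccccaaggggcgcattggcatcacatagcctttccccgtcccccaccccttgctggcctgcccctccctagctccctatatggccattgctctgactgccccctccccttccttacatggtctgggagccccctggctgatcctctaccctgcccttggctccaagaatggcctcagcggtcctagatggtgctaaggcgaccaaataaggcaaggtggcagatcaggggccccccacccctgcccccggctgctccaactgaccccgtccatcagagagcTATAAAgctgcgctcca
Tnnt2: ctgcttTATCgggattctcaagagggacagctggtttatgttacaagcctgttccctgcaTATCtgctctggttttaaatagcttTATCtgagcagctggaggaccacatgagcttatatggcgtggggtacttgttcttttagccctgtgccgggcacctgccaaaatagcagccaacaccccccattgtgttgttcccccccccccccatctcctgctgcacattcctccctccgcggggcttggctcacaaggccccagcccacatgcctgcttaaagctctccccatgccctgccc
GATA occurs 2 times in the Hbb-y window, 3 times in that of Hba-x, 3 times in that of Tnnt2 and 0 times in that of Actc1. The windows of Myl7 and Myl4, cardiac genes that also rose and whose sequences are not printed to keep the set small, hold GATA 1 and 0 times and TATAAA 0 times. TATAAA occurs 1 time in each of the windows of Hba-x and Actc1 and 0 times in those of Hbb-y and Tnnt2. Of all 32851 promoters of this length, 57.9% hold GATA on 1 strand or the other and 13.6% hold TATAAA. A match here is a description of the letters and no site of binding.

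Most endothelial genes rose. Aplnr, the apelin receptor of mesoderm and vessels, went from 25.8, 307 and 29.3 to 2354 and 2577 (5.0 ± 1.21), with ESC array 2 well above the other ESC arrays. Nrp1, a coreceptor for vascular endothelial growth factor, went from 73.0, 124 and 28.3 to 1043 and 987 (3.76 ± 0.64). Ramp2, a subunit of the adrenomedullin receptor, rose by 3.36 ± 0.47, and Icam2, an adhesion molecule of endothelium, by 2.88 ± 0.65, a call lost without day 7 array 2. Eng, endoglin, had 377, 185 and 233 in ESC and 174 and 156 at day 7 and did not pass. Of 21 tested members 15 rose and 0 fell, and the median of the 23 on the array was 2.23. The count was 10 without day 7 array 1, 11 without day 7 array 2, 10 with median scaling and 11 with either covariate.

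Heart muscle genes rose from low signals. Actc1, cardiac alpha-actin, went from 21.7, 47.0 and 19.7 to 1322 and 1470, a difference of 5.20 ± 0.61 (adjusted p = 1.35e-05). Myl7, the atrial regulatory light chain of myosin, went from 86.4, 69.8 and 38.9 to 1177 and 1286 (4.09 ± 0.88). Tnnt2, cardiac troponin T, rose by 3.91 ± 0.74, and Myl4, the atrial essential light chain, by 3.74 ± 0.84. Tnnt2 passed the filter only through day 7 arrays, so it could hardly have been called lower. Acta2, the smooth muscle actin, had 509, 570.3 and 1038 in ESC and 1966 and 2026 at day 7 and did not pass (1.56 ± 0.75). Of 21 tested members of the cardiac and smooth muscle list 15 rose and 0 fell, with a median of 2.17 over 22 genes, and the count was 12 to 15 without 1 of the arrays and 12 and 11 with the covariates.

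Of 14 tested regulators of lateral and paraxial mesoderm, 6 rose and 1 fell. Hand2, a transcription factor of heart and limb mesoderm, went from 2.67, 15.5 and 4.13 to 503 and 532 (4.95 ± 0.57). Isl1, which marks second heart field progenitors, went from 3.52, 12.6 and 2.47 to 220.5 and 263 (3.96 ± 0.53). Tbx20, a T-box factor of the heart, and Foxf1, a factor of splanchnic mesoderm, rose by 2.81 ± 0.51 and 2.25 ± 0.38. Bmp4, a ligand made by ESC and by early mesoderm, fell from 137, 209.6 and 411 to 92.0 and 22.8 (-2.04 ± 0.52), a call lost without day 7 array 2. The median of the list was 0.92, and with either covariate 2 members rose and 0 fell.

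In the primitive streak list 0 of 11 tested members rose and 1 fell, Fgf8, a ligand of the streak (-1.63 ± 0.61), whose call was lost without ESC array 1 or 2 or either day 7 array. Mixl1, a homeobox gene of the streak, had 255, 1398 and 127 in ESC and 172 and 125 at day 7. The high value was on ESC array 2. The same array was highest for Eomes (157, 684 and 126) and Lhx1 (33.5, 276 and 11.2), which were chosen after their values were seen. Over the list, ESC array 2 was the highest of the 3 ESC arrays for 11 of 14 genes on the array, beside 29.6% of all genes. It was also highest for 9 of 11 endoderm regulators and 13 of 18 mesoderm genes, whereas ESC array 3 was highest for 23 of 26 pluripotency genes. Without ESC array 2, 1 streak gene rose and 0 fell, and with either covariate 0 fell.

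**Figure D2:**
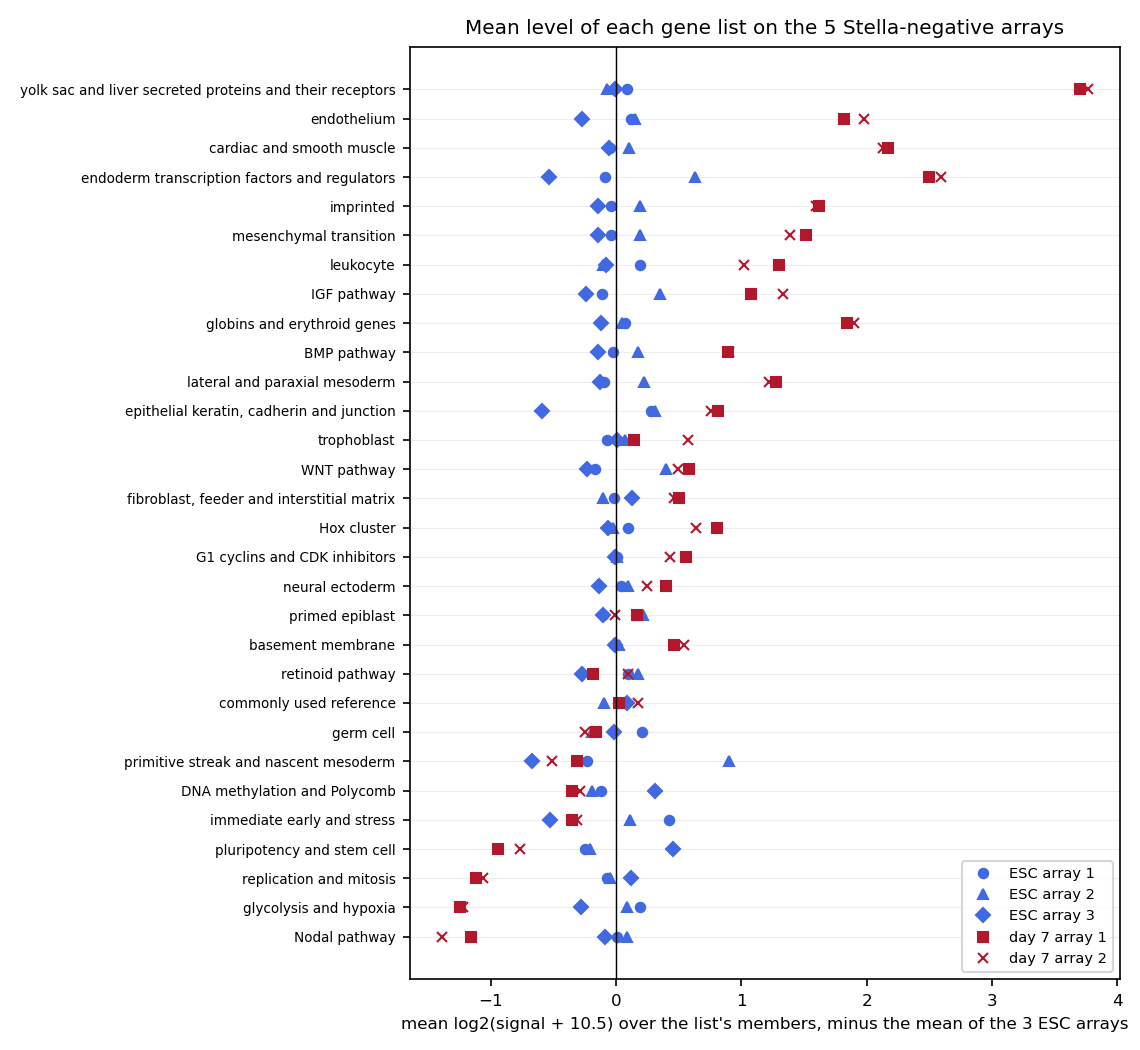
Mean log2(signal + 10.5) over each list's members on the 5 Stella-negative arrays, minus the mean of the 3 ESC arrays. Blue symbols are ESC arrays 1 (circle), 2 (triangle) and 3 (diamond), and red symbols are day 7 arrays 1 (square) and 2 (cross). The ESC arrays spread widest for the primitive streak list, where array 2 is highest.

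Genes of mesenchymal transition and of connective tissue moved unevenly. Snai2 and Zeb1, repressors of epithelial genes, rose by 2.94 ± 0.54 and 2.89 ± 0.34, and Cdh11, a mesenchymal cadherin, by 1.72 ± 0.64, a call lost without ESC array 1 or 3 or either day 7 array. Of 7 tested members of the transition list 5 rose and 0 fell, with 2 called without either day 7 array and 1 and 2 with the covariates. Unsorted ESC had 702 and 208 for Cdh11, beside 411 and 359 at day 7, and 204 and 35.6 for Snai2, beside 206 and 85.5. Col3a1, a fibrillar collagen, went from 33.4, 18.2 and 21.1 to 636 and 593 (4.19 ± 0.51), and Tgfbi, a matrix protein induced by TGF-beta, rose by 2.47 ± 0.33. S100a4, a calcium-binding protein of fibroblasts, fell from 77.3, 95.5 and 279.8 to 1.55 and 1.41 (-3.54 ± 0.68). In the list of fibroblast, feeder and interstitial matrix genes 5 of 19 rose and 1 fell, with a median of 0.63 (-0.06 with median scaling). Its summed signal was 1657 to 1971 on the ESC arrays and 3173 and 2990 at day 7, and 2 and 3 members rose without day 7 array 1 or 2. With either covariate 1 member rose and 0 fell. The feeder markers Col1a1 and Thy1 had 118, 133 and 130.4 and 174, 174 and 198 in ESC and 80.7 and 61.9 and 71.5 and 90.5 at day 7, and neither passed, although another probe set of Col1a1 rose. The part of feeder cells in the sort was not tested.

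Of 14 tested neural genes 4 rose (28.6%) and 1 fell (7.14%), beside 18.9% and 16.0% of all tested genes. Pax3, a factor of dorsal neural tube and somites, rose from 23.7, 20.4 and 19.3 to 108 and 124 (2.0 ± 0.41), and Sox11, a factor of immature neurons, rose by 1.5 ± 0.37, a call lost without day 7 array 1. Sox3, a factor of neural progenitors and epiblast, fell from 86.3, 172 and 81.9 to 32.5 and 41.8 (-1.31 ± 0.36), a call lost without ESC array 2 or day 7 array 1. The list's median was 0.42 (0.03 with median scaling and -0.03 with quantile normalization). With either covariate 0 rose and 3 fell, and 1 rose without day 7 array 1.

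Hox genes, which give the body axis its positional identity, had low signals. Of the 33 on the array 17 passed the filter, and 9 of these rose and 0 fell. Hoxb3 went from 12.2, 12.1 and 10.2 to 95.6 and 91.3 (2.24 ± 0.49), Hoxb2 from 23.9, 5.03 and 14.1 to 99.1 and 61.8 (1.92 ± 0.50), and Hoxd13, a posterior member, rose by 1.60 ± 0.42. The call of Hoxb2 was lost without day 7 array 1 and that of Hoxd13 without day 7 array 2. Members passed the filter only where some array was high, so the count of 9 cannot be read as a share of the cluster. Over all 33 the median was 0.62, 4 were called without either day 7 array, 3 with median scaling, and 0 with either covariate.

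Markers of blood cells other than erythrocytes, of trophoblast and of germ cells were examined because the gate could hold such cells. Csf1r, the receptor of macrophage colony-stimulating factor, went from 50.6, 36.1 and 27.9 to 416 and 381 (3.10 ± 0.31), and Cd14, a lipopolysaccharide coreceptor of monocytes, from 9.36, 7.28 and 9.23 to 171 and 185 (3.30 ± 0.36). Ptprc, the pan-leukocyte CD45, was at 28.1 and 19.9 at day 7, below the median of both arrays, and was not tested. Of 7 tested leukocyte genes 3 rose and 0 fell, and the summed signal of the 10 on the array was 402.4 to 600.9 in ESC and 1208 and 1101 at day 7. With the covariates 3 and 2 leukocyte genes rose. In the trophoblast list 3 of 9 rose and 1 fell, with Plac1, a placental gene, at 1.67 ± 0.40, and its summed signal of 829 to 1219 in ESC spanned the 846 and 1105 of day 7, and with the covariates 1 and 0 rose and 0 fell. The part of these cells in the results was not tested.

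Dppa3 itself, which checks the sort, had 139, 228 and 244 on the negative ESC arrays and 74.6 and 101 on the negative day 7 arrays. It fell by 1.10 on the log2 scale, a call lost without day 7 array 1. On the Stella-positive arrays the signal was 941 and 1473 in ESC and 807, 728, 1078 and 1138 at day 7. Among germ cell genes, Alpl, the tissue-nonspecific alkaline phosphatase, fell (-1.5 ± 0.37), as did Ifitm1, an interferon-induced membrane protein of early germ cells (-1.21 ± 0.34), and Ddx4, the vasa helicase (-1.17 ± 0.36). The call of Alpl was lost without day 7 array 2, and those of Ifitm1 and Ddx4 without either day 7 array and without ESC array 3 and 1, respectively. Dazl, an RNA-binding protein of germ cells, rose from 36.0, 21.0 and 26.4 to 155 and 193 (2.28 ± 0.41), beside 3.84 in the Stella-positive fraction. Of 19 tested members 3 rose and 6 fell, and the falls numbered 2 without day 7 array 1, 1 without day 7 array 2, 11 with median scaling, and 3 and 2 with the covariates.

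Pluripotency genes fell unequally. Pou5f1, the POU factor without which the stem cell state is lost, had 1886, 1819 and 1912 in ESC and 289.5 and 309 at day 7, a difference of -2.60 ± 0.19 (adjusted p = 5.46e-07). Unsorted ESC had 745 and 1119 for Pou5f1, below every negative ESC array and above both day 7 arrays. Tdgf1, a coreceptor for Nodal, fell from 2655, 2109 and 2522 to 433 and 602 (-2.22 ± 0.26), and Gdf3, a TGF-beta family ligand of ESC, fell by 2.19 on the log2 scale. Klf2, a factor of naive pluripotency, fell from 2352, 1988 and 2126 to 550.1 and 736 (-1.74 ± 0.19). Sox2, a partner of Pou5f1 that neural progenitors also make, changed less, from 1974, 1615 and 2856 to 1246 and 1350 (-0.68 ± 0.22), a call lost without ESC array 3 or either day 7 array. Nanog had 1093, 1324 and 2264 and 873 and 939.8 and did not pass (-0.71 ± 0.28, adjusted p = 0.0600). Dppa5a, an RNA-binding protein of ESC, was among the brightest genes in both groups, at 7222, 6071 and 8341 and 8226 and 8405, which overlap.

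Of the 26 pluripotency genes 16 fell and 1 rose, with a median of -1.04. The one that rose, the let-7 regulator Lin28a, had a second probe set that fell by 1.21, so its direction is not settled, and its call was lost without ESC array 1 or 3 or either day 7 array. The falls numbered 11 to 17 without 1 of the arrays, and 3 and 1 with the actin and Gapdh ratios as covariates. In the primed epiblast list 1 of 12 rose and 2 fell, with a median of 0.21, and with either covariate 1 rose and 0 fell. Nodal, the ligand that patterns the epiblast, fell from 1047, 613 and 1038 to 366 and 428 (-1.12 ± 0.28), a call lost without day 7 array 1. Dnmt3b, the de novo methyltransferase of epiblast, had 1191, 1651 and 1457 and 1608 and 1640 and did not pass.

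Genes of the Nodal pathway fell in the majority. Lefty1 and Lefty2 are secreted inhibitors that Nodal signalling induces. Lefty1 went from 2591, 1871 and 1470 to 132 and 145 (-3.70 ± 0.23, adjusted p = 2.27e-07), and Lefty2 from 726, 559 and 866 to 86.9 and 101 (-2.78 ± 0.34). Foxh1, the DNA-binding partner of Smad proteins in Nodal signalling, fell by 1.88 on the log2 scale, and Inhba, a subunit of activin, fell by 1.87, a call lost without ESC array 1 or 3 or either day 7 array. Smad3, a transducer, rose in the probe set that stands for it (1.45 ± 0.25), while another of its 3 probe sets fell. Of 9 tested members 5 fell and 1 rose, with a median of -1.75, and 3 fell with either covariate and without day 7 array 2.

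In the BMP list 7 of 15 rose and 2 fell, and with the covariates 4 and 3 rose and 0 fell. The ligands Bmp2, from 17.0, 102 and 8.84 to 588 and 449.5 (3.74 ± 0.66), and Bmp5 (2.51 ± 0.37) rose, as did Id2, a target that restrains differentiation factors, from 126, 70.6 and 57.1 to 774 and 659.8 (3.0 ± 0.33), and the inhibitory Smad6 (2.01 ± 0.46). The BMP antagonist Grem1 fell from 406, 221 and 786 to 52.1 and 64.6 (-2.63 ± 0.64), a call lost without day 7 array 1, and Smad7 fell by 1.18 on the log2 scale. In the WNT list 4 of 15 rose and 0 fell, led by the receptor Fzd4 (2.04 ± 0.52), a call lost without day 7 array 1. In that list 0 rose without day 7 array 1, 0 with median scaling and 1 with either covariate. In the retinoid list 1 of 10 rose and 2 fell: the receptor Rarb, a retinoic acid target, rose from 18.4, 16.0 and 17.5 to 164 and 125 (2.47 ± 0.50), and Rara fell from 139, 118 and 113 to 25.3 and 19.7 (-2.02 ± 0.34). With either covariate 1 retinoid gene rose, and 2 and 1 fell.

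The insulin-like growth factor system changed in both directions. Igf2, the fetal growth factor, went from 112, 184 and 99.1 to 2885 and 3053 (4.44 ± 0.62), and Igf1 from 5.88, 12.1 and 9.00 to 107 and 173 (2.92 ± 0.43). Of the binding proteins, Igfbp5 went from 29.2, 23.7 and 16.4 to 1305 and 1343 (5.33 ± 0.64) and Igfbp2 from 2741, 2543 and 2541 to 253 and 337 (-3.11 ± 0.25). One rose and the other fell, each without overlap between the groups. The list, in which Igf2 is not counted, had 5 of 9 tested members higher and 1 lower, 3 higher without either day 7 array, and 2 higher with either covariate or with median scaling.

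Most imprinted genes, which are expressed from 1 parental allele and often act in fetal growth, rose. Dlk1, a Notch-like membrane protein, went from 80.5, 99.2 and 26.3 to 1713 and 1675 (4.57 ± 0.46). Meg3, the maternally expressed noncoding RNA of the same cluster, went from 735, 517 and 997 to 7696 and 8077 (3.43 ± 0.26, adjusted p = 5.46e-07), and 8 of its 11 tested probe sets rose while 0 fell. Ndn, necdin, went from 96.8, 95.3 and 160.5 to 1110 and 1243 (3.25 ± 0.35). Slc38a4, an amino acid transporter, was the member that fell (-1.02 ± 0.28), a call lost without day 7 array 1. Of 17 tested members 12 rose and 1 fell, the median of the 20 on the array was 1.47, and the rises numbered 10 to 12 without 1 of the arrays, 8 with median scaling, and 9 and 6 with the covariates.

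Most replication and mitosis genes fell. Mcm3, a subunit of the replicative helicase, went from 1616, 1649 and 2007 to 452 and 496 (-1.86 ± 0.17), and 4 of its 5 probe sets fell while 1 rose. Ccnb2, a mitotic cyclin, went from 1108, 910.5 and 1046 to 301 and 257 (-1.83 ± 0.19), and Bub1, a kinase of the spindle checkpoint, from 1074, 682 and 639 to 215 and 227 (-1.77 ± 0.25). Unsorted ESC had 654 and 762 for Mcm3, below every negative ESC array and above both day 7 arrays. They were nearer to the negative ESC arrays for Ccnb2 (790.6 and 944) and Bub1 (508.5 and 710.5). Myc, the growth-promoting transcription factor, fell by 1.93 on the log2 scale. Mcm7, another helicase subunit, had 3616, 3586 and 4381 and 2731 and 2915 and did not pass (adjusted p = 0.0579), although 2 of its 4 probe sets fell. Of 22 tested members 16 fell and 0 rose, with a median of -1.32. The count was 15 or 16 without 1 of the arrays, but 7 with the actin ratio and 1 with the Gapdh ratio as covariate.

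Among G1 cyclins and inhibitors of cyclin-dependent kinases, the inhibitors rose. Cdkn1b went from 111, 97.8 and 42.0 to 689 and 327 (2.46 ± 0.40), Cdkn1c from 107, 186 and 66.3 to 326 and 493 (1.76 ± 0.37), and Cdkn1a rose by 1.19 ± 0.28. For Cdkn1b day 7 array 1 was above day 7 array 2, and both were above every ESC array. Cyclins Ccnd1 and Ccnd3 fell (-0.87 ± 0.26 and -0.68 ± 0.20), and both calls were lost without either day 7 array, that of Ccnd1 also without ESC array 3 and that of Ccnd3 also without ESC array 2. In this list 3 of 11 rose (27.3%) and 2 fell (18.2%), near the 18.9% and 16.0% of all tested genes. With either covariate 1 rose and 0 fell.

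Genes of DNA methylation and Polycomb repression held more falls than rises. Dnmt3l, the cofactor of de novo methylation, went from 820.3, 970.5 and 1222 to 128 and 190.2 (-2.59 ± 0.30). Phc1, a subunit of Polycomb repressive complex 1, went from 2453, 2063 and 2208 to 588 and 677 (-1.81 ± 0.25), and the complex 2 subunits Eed and Ezh2 fell too (-1.25 ± 0.26 and -0.83 ± 0.20). Tet2, a dioxygenase that oxidises methylcytosine, rose from 81.0, 45.9 and 141 to 328 and 362 (1.95 ± 0.33). Unsorted ESC had 407 and 541 for Tet2, above both day 7 arrays, so the rise holds against the negative ESC arrays only. Jarid2 rose in its brightest probe set (1.40 ± 0.23) and in another it fell by 2.09. Dnmt1 fell in its brightest probe set (-0.58 ± 0.17) and rose in others (0.92 and 0.75). The brightest probe set of Suz12 was at 0.10, and others were called at -0.92, -1.66, 1.69 and 1.32. Of 13 tested members 6 fell and 2 rose, the falls numbered 4 to 6 without 1 of the arrays, and with either covariate 0 were called.

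Most genes of glycolysis and of the response to low oxygen fell. Pfkl, liver phosphofructokinase, went from 3219, 3078 and 2225 to 184 and 229 (-3.70 ± 0.37). Bnip3, a mitochondrial protein induced in hypoxia, went from 2185, 1741 and 877 to 194 and 197 (-2.87 ± 0.49), and Ankrd37 from 368, 424 and 166 to 36.0 and 14.8 (-3.16 ± 0.51). For these hypoxia genes ESC array 3 was well below the other ESC arrays but still above both day 7 arrays. Unsorted ESC, at 405 and 1286 for Bnip3 and 42.0 and 70.8 for Ankrd37, were lower than most sorted ESC arrays. They too were above both day 7 arrays. The reason for the difference between sorted and unsorted ESC was not tested. Slc16a3, which exports lactate and is in no list, fell from 1835, 2477 and 966 to 105 and 90.2 (-3.93 ± 0.38). The glucose transporter Slc2a3 had 2 probe sets that rose and 2 that fell. Of 16 tested members 11 fell and 1 rose, with a median of -1.58 beside 0.29 for all genes. The falls numbered 9 to 11 without 1 of the arrays and 1 with either covariate.

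In the immediate early and stress list 16.7% of tested members rose and 33.3% fell, beside 18.9% and 16.0% of all tested genes. The rises were thus near the share of all genes. Ier3 and Junb, early response genes, fell from 659.6, 389 and 403 to 73.7 and 60.0 (-2.64 ± 0.32) and from 397, 521 and 257 to 88.5 and 52.0 (-2.30 ± 0.39). The heat shock gene Hspa1a rose from 89.3, 39.7 and 34.6 to 382 and 367 (2.66 ± 0.83), a call lost without ESC array 2 or 3 or either day 7 array. Of 18 tested members 3 rose and 6 fell, and 0 rose without ESC array 3 or either day 7 array. The falls numbered 9 with median scaling and 1 and 0 with the covariates, with which 3 and 4 rose.

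Other deep falls were in genes of varied function. Upp1, which splits uridine for salvage, went from 3308, 3197 and 2430 to 92.8 and 86.8 (-4.88 ± 0.34, adjusted p = 3.82e-07). Trh, the precursor of thyrotropin-releasing hormone, went from 1923, 3005 and 3951 to 211 and 276 (-3.50 ± 0.43). Thop1, a peptidase, Ddx49, an RNA helicase, and Zmynd19 also fell (-4.14 ± 0.35, -3.65 ± 0.28 and -3.55 ± 0.59). Aven, an inhibitor of apoptosis, Sfn, the 14-3-3 sigma protein, and Fsd1 were among the 12 largest falls too (-3.18 ± 0.43, -3.35 ± 0.49 and -3.19 ± 0.46). These too were chosen from called genes whose day 7 and ESC arrays did not overlap, so that separation is no further support. Unsorted ESC had 94.5 and 159 for Thop1, beside 457, 680 and 483 on the negative ESC arrays and 10.2 and 35.4 at day 7. For Sfn they had 49.9 and 37.7, beside 320, 236 and 210 and 6.87 and 27.3. For Fsd1, at 166 and 218, they were nearer to the negative ESC arrays (291, 264.5 and 209.9).

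Some genes often taken as references were called as well, in shares near those of all genes. Actb had 6964, 6188 and 8267 in ESC and 13250 and 13658 at day 7, a difference of 0.92 ± 0.22 that was -0.05 with quantile normalization, and its other tested probe set fell by 0.87. Ywhaz rose from 1266, 1301 and 1201 to 3554 and 3805 (1.54 ± 0.18), and Hprt fell from 1874, 1679 and 2063 to 777 and 666 (-1.36 ± 0.25). Of 11 tested reference genes 3 rose (27.3%) and 2 fell (18.2%), beside 18.9% and 16.0% of all tested genes. Their median was 0.00 with the trimmed mean, -0.25 with quantile normalization and -0.71 with median scaling. With the covariates 1 and 0 rose and 1 and 2 fell. Directions given for gene groups are relative to the trimmed mean.

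**Figure D3:**
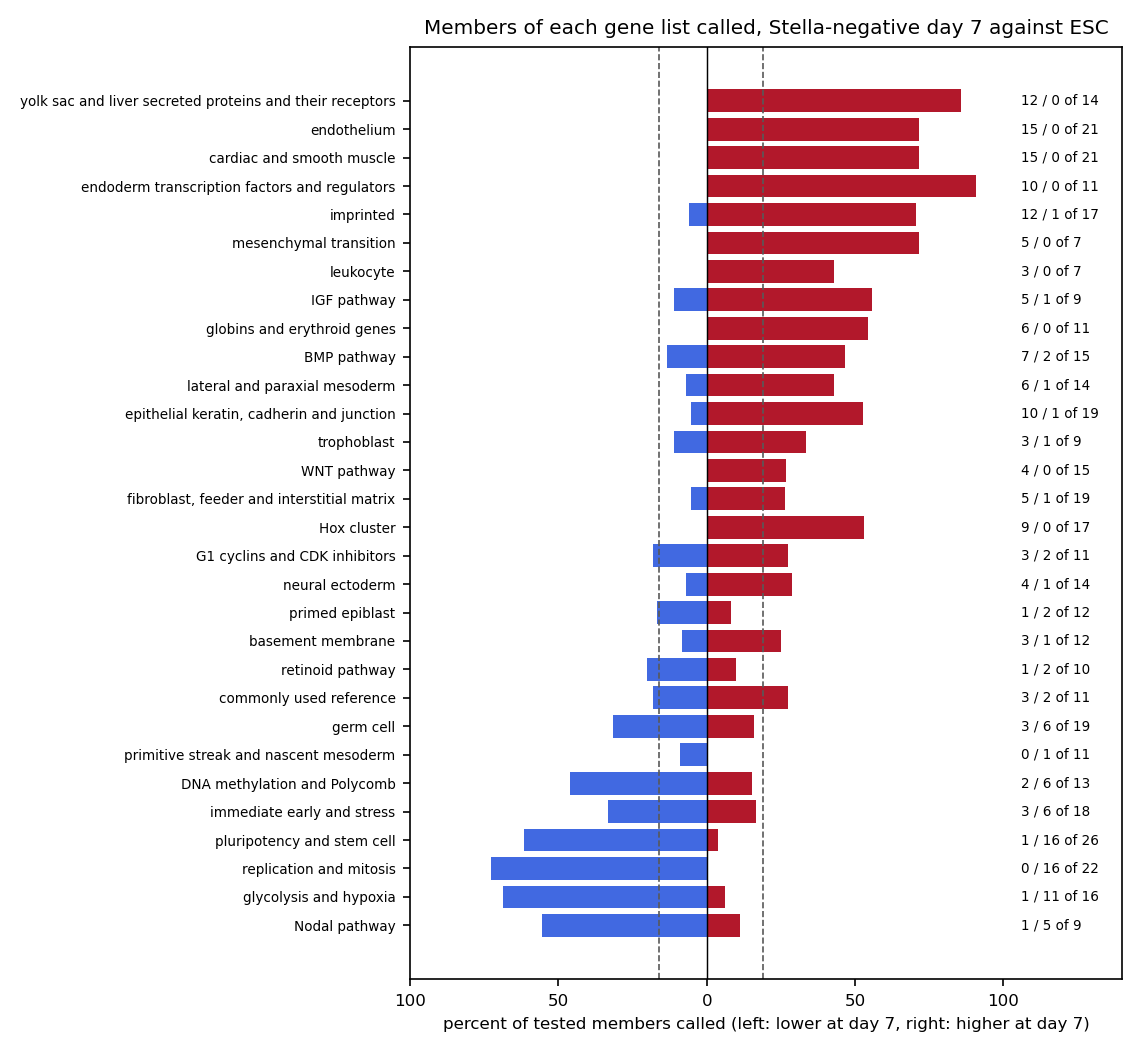
Percent of tested members of each of 30 gene lists called higher (red, to the right) or lower (blue, to the left) at day 7, with counts at the right edge as higher / lower of tested. Dashed lines mark the shares over all tested genes, 18.9% and 16.0%, and lists are ordered by the median difference of their members. The yolk sac list (12 of 14) and the endoderm regulators (10 of 11) reach furthest right, and the replication and mitosis list (16 of 22) reaches furthest left. Members dim in ESC were tested only through arrays where they were high, which favours calls to the right.

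**Figure D4:**
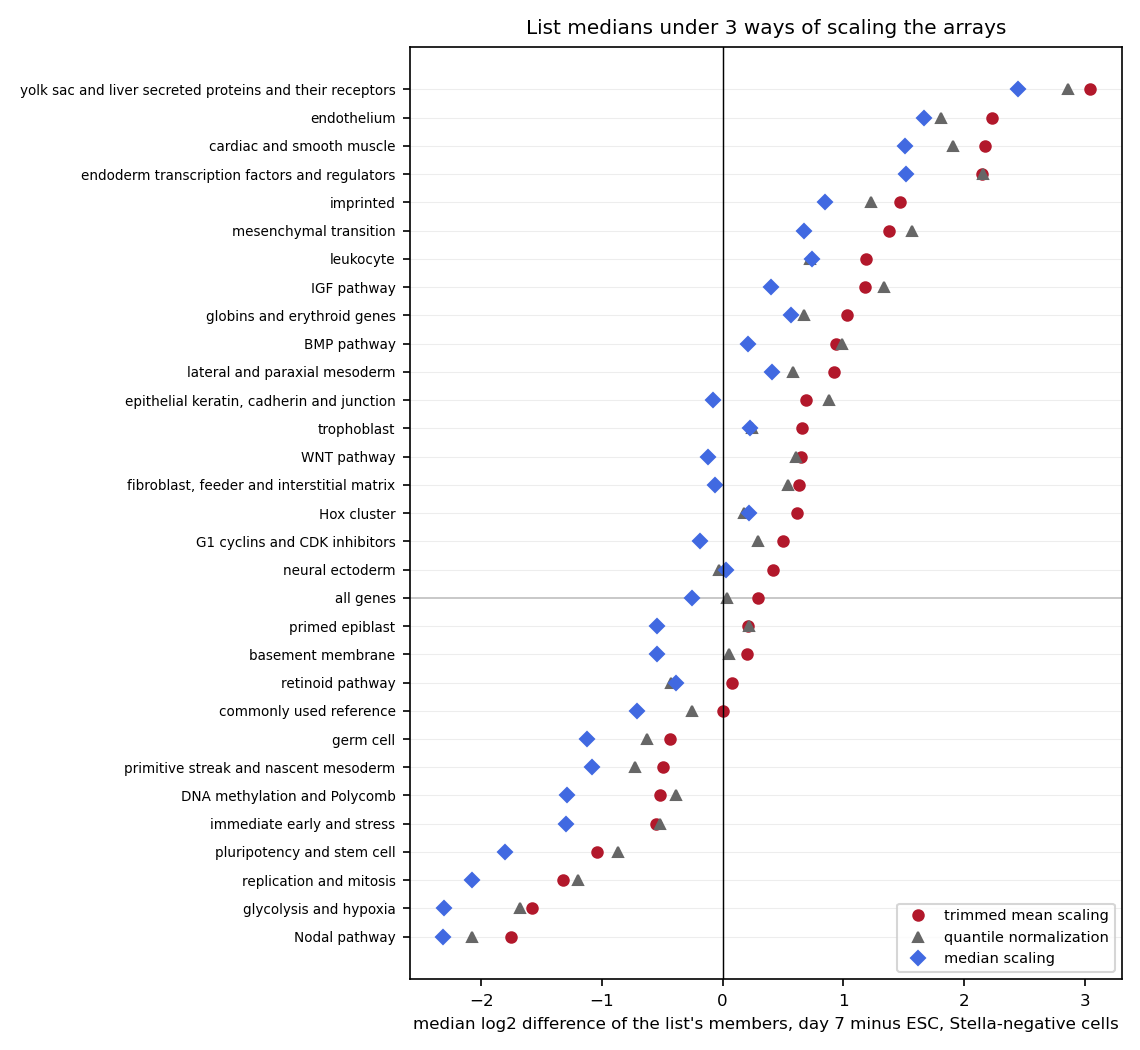
Median log2 difference of each list's members on the array, day 7 minus ESC, under 3 ways of scaling the arrays (trimmed mean, red circles; quantile normalization, grey triangles; median scaling, blue diamonds). The row of all genes moves from 0.29 to 0.04 and -0.25. The medians of the epithelial, WNT, fibroblast, G1, primed epiblast, basement membrane and retinoid lists lie above 0 with the trimmed mean and below 0 with median scaling.

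The same step in the Stella-positive fraction, day 7 minus ESC, rests on 6 other arrays, so the difference between the 2 changes could be tested. The hybridisation was partly shared, however. All day 7 arrays of both fractions had the same chip lot and project label, and Stella-positive ESC array 1 shared the run and lot of the negative ESC arrays. A shared change with stage and a shared effect of hybridisation therefore cannot be told apart in the agreement below. Of the genes called higher in the negative fraction 93.1% were also above 0 in the positive fraction, where their median difference was 0.71 beside 1.39, and of those called lower 89.2% were below 0, at -0.53 beside -1.17. Over all 14007 tested genes 75.7% had the same sign in both fractions. Only the genes chosen by the negative fraction enter these values, which favours a larger size there. In the test of the difference itself 29 of 14007 genes were called as more positive in the negative fraction (0.207%) and 84 as more negative (0.600%). Among the Stella-positive day 7 arrays the actin 3'/5' ratio ran from 2.04 to 5.16, beside 5.48 and 5.85 in the negative ones, and with the actin or Gapdh ratio as a covariate 830 and 1395 genes were called.

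The globins led the differences toward the negative fraction. In the Stella-positive fraction, Hbb-y had 0.447 and 0.399 in ESC and 152, 159, 17.2 and 0.900 at day 7, and its change was larger in the negative fraction by 5.51 ± 1.13 (adjusted p = 0.0345). Hbb-bh1 changed more by 4.53 ± 0.90. Selenop, Hand2, Isl1 and Col3a1 changed more by 3.71, 3.56, 3.35 and 3.35, and Csf1r by 2.14. Tug1, a long noncoding RNA, rose from 708, 646 and 391 to 5231 and 5797 in the negative fraction and was at -0.91 in the positive one, a difference of 4.17 ± 0.55 (adjusted p = 0.00440), although only 2 of its 3 probe sets rose. Ttr, Afp and Actc1 did not pass this test, with adjusted p of 0.259, 0.367 and 0.188.

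Toward the positive fraction, Pou5f1 fell by 1.09 there and fell by 2.60 in the negative fraction, a difference of -1.51 ± 0.27 (adjusted p = 0.0215). Dnmt3l differed by -1.95, Ccnb2 by -1.20 and Mcm3 by -1.09. Tfap2c, a transcription factor of early germ cells, was at -0.50 in the negative fraction, where it did not pass although 2 of its 3 probe sets fell, and it rose by 1.28 in the positive one, a difference of -1.77 ± 0.36 (adjusted p = 0.0329). The largest differences in this direction were in Nefh, the heavy neurofilament (-3.06 ± 0.50), Ddx49 (-2.87), Abcf3 (-2.77), Stoml1 (-2.62), Abtb1 (-2.50) and Thop1 (-2.37). The second probe set of Abcf3 rose by 1.44 in the negative fraction, so its direction is not settled. Nefh had 171, 150.4 and 129.7 on the negative ESC arrays and 4.08 and 16.1 at day 7, against 118, 61.3, 120.2 and 182 on the positive day 7 arrays. Single arrays moved these calls: 113 genes were called in all, 8 without Stella-negative day 7 array 1, 16 without day 7 array 2, 26 to 30 without 1 of the negative ESC arrays, and 59 and 3 without Stella-positive ESC array 1 or 2. The call of Hbb-y was lost without any 1 of the 5 negative arrays and without either positive ESC array, that of Tug1 without positive ESC array 2.

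**Figure D5:**
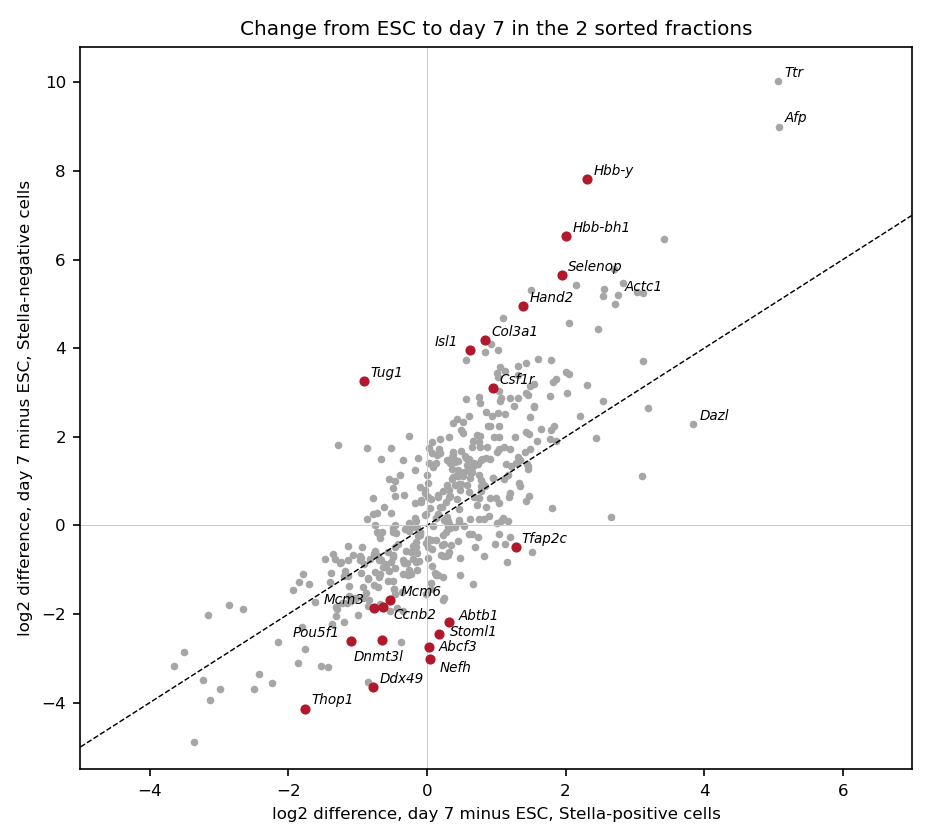
Log2 difference from ESC to day 7 of named and listed genes in the Stella-negative cells (vertical) against the Stella-positive cells (horizontal). Red points differ between the fractions at an adjusted p under 0.05, grey points do not, and the dashed line marks equal change. Hbb-y and Hbb-bh1 lie far above the line at 7.82 and 6.54, and Nefh and Abcf3 lie below it near 0 on the horizontal axis.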

How the data were processed

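Total RNA of sorted or unsorted cells was hybridised to Affymetrix Mouse430_2 arrays, 1 array per sample. The values the authors deposited are linear MAS5 signal intensities, per the labels and the submitters' processing notes, with no version given. They were not on 1 scale: the 2% trimmed means of the 13 arrays differed by up to 27.1-fold. Each array was therefore scaled to a common trimmed mean of 105.2, and log2(signal + 10.5) was taken. A probe set was kept where 2 or more of the 13 arrays had it above their own median, 30023 of 45037 after leaving out 64 control probe sets.

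A linear model of 5 group means was fitted in limma 3.58.1 (R 4.3.3) with a trended prior variance, and p-values of all 30023 probe sets were adjusted together (Benjamini-Hochberg). The script was tested on simulated data. A gene is given by its brightest probe set with 1 symbol (34945 probe sets had 1, 932 several and 9160 none, by GEO's platform annotation). The number of arrays limits the precision. The replicate numbers of the titles were checked and did not pair the arrays.

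The members and the 30 gene lists were chosen with earlier results of these data known. Genes named are the markers Ttr, Afp, Hbb-y and Actc1, the 12 largest non-overlapping rises and falls, in each list up to 4 called members per direction and the brightest member that did not pass, a few fixed genes, and the 6 largest differences per direction between the fractions. Also shown are markers of other cells that the gate could hold. List medians cover all members on the array, tested or not. Constants, filters, scalings, weights, covariates, blocks and single arrays were varied.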

Additional observations from a re-analysis of the deposited data

Results flagged for a closer look

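For 19 of the genes named above, the change from ESC to day 7 differed between Stella-negative and Stella-positive cells by the interaction term of the limma model (adjusted p under 0.05). In units of log2, negative-fraction change minus positive-fraction change, the difference was above 0 for 8 of them: 5.51 for Hbb-y, 4.53 for Hbb-bh1, 4.17 for Tug1, 3.71 for Selenop, 3.56 for Hand2, 3.35 for each of Isl1 and Col3a1, and 2.14 for Csf1r. It was below 0 for the others: -3.06 for Nefh, -2.87 for Ddx49, -2.77 for Abcf3, -2.62 for Stoml1, -2.50 for Abtb1, -2.37 for Thop1, -1.95 for Dnmt3l, -1.77 for Tfap2c, -1.51 for Pou5f1, -1.20 for Ccnb2 and -1.09 for Mcm3. The 3'/5' control ratios and the hybridisation runs differ between these groups: 17 of the 19 genes were called with hybridisation run as a random block, 19 with the actin ratio and 14 with the Gapdh ratio as covariate. Fewer were called under other alternatives: 5 with median scaling, 2 with a constant prior variance, 2 and 5 without Stella-negative day 7 array 1 or 2, 6 or 7 without 1 of the negative ESC arrays, and 7 and 1 without Stella-positive ESC array 1 or 2.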

How the results depend on the processing

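In the Stella-negative comparison, trimmed mean scaling called 2648 and 2247 genes as higher and lower. These counts were 716 and 4555 with median scaling, 150 and 5406 with no scaling, 944 and 653 with the actin ratio and 966 and 387 with the Gapdh ratio as covariate, and the latter called 18 genes the opposite way. Without 1 of the 5 arrays the higher calls ranged from 1279 to 2186 and the lower calls from 1354 to 1877; with 1 day 7 array left, it was assumed to vary like the other groups. The fit with a replicate block called 3104 and 2467, and the replicate numbers do not pair these arrays, with correlations of 0.0214 and 0.00783 between deviations of equal number. Hybridisation run as a random block gave 1906 and 1774, the 5 Stella-negative arrays alone 3812 and 2708, and array weights 3691 and 2816. Other constants and filters, a constant prior variance, quantile normalization and the mean of a gene's probe sets kept both counts within 1.5 times. Leaving out the 2 dimmest Stella-positive day 7 arrays, an alternative chosen after seeing the data, gave 3753 and 2751.

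For the difference between the fractions, 29 and 84 genes were called as more positive and more negative. The counts were 14 and 83 and 75 and 83 with a smaller and a larger constant, 13 and 42 with no filter, 1 and 5 with median scaling, 81 and 190 with quantile normalization, 8 and 0 with no scaling, 1 and 2 with a constant prior variance, 142 and 302 with array weights, 12 and 36 with a replicate block, 426 and 404 and 915 and 480 with the actin and Gapdh covariates, 70 and 145 without the 2 dimmest arrays and 10 and 53 with the mean of probe sets. Without 1 of the 11 arrays they ranged from 1 to 58 and from 2 to 138. Of the 128 named genes called in the Stella-negative comparison, 103 were called in each of the 5 omissions and 25 were lost in at least 1.

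Some named genes changed sign. Under median scaling the log2 difference was -0.59 for Dnmt3b, -0.57 for Dppa5a, -0.68 for Fn1 and -0.09 for Gata1. Under quantile normalization it was -0.05 for Actb, -0.55 for Dppa5a and -0.09 for Fn1. With no scaling it was -0.21 for Acta2, -0.86 for Actb, -0.56 for Cdkn1a, -1.58 for Dnmt3b, -1.56 for Dppa5a, -1.67 for Fn1, -0.89 for Gata1, -0.62 for Hba-a1, -0.37 for Jarid2, -0.58 for Slc2a3, -0.26 for Smad3, -0.24 for Sox11 and -0.23 for Ywhaz. With the actin ratio as covariate it was 0.11 for Ccnd1, 1.89 for Cdh1, -0.38 for Dppa5a, 0.09 for Eng, 0.02 for Eomes, -0.57 for Gata1, -1.01 for Hba-a1, 0.60 for Ifitm1, 0.21 for Nanog, 0.05 for Nid2, 0.64 for Slc38a4, 1.01 for Spint2 and 0.54 for Tfap2c. With the Gapdh ratio as covariate it was 1.46 for Ankrd37, 1.88 for Bnip3, 0.00 for Bub1, 0.96 for Ccnd1, 2.99 for Cdh1, 0.82 for Ddx4, -0.68 for Dppa5a, 0.17 for Eed, 1.26 for Eng, 0.65 for Eomes, -0.49 for Gata1, -2.0 for Hba-a1, -0.10 for Hoxb3, -0.62 for Hoxd13, 0.72 for Hprt, 1.96 for Ifitm1, 1.0 for Nanog, 0.62 for Nid2, -0.05 for Pax3, 0.43 for Phc1, 0.93 for Sfn, 1.64 for Slc38a4, 2.32 for Spint2, 1.03 for Tfap2c, 0.25 for Trh and 0.99 for Zmynd19. With the mean of a gene's probe sets it was 0.02 for Ccnd3, 0.69 for Col1a1, -0.15 for Dnmt3b, -0.36 for Jarid2, -0.76 for Slc2a3 and -0.02 for Smad3. Without 1 array in turn it ranged from -1.11 to 0.06 for Eomes, highest without ESC replicate 2, and from -0.11 to 1.34 for Hba-a1, lowest without day 7 replicate 1. The cause of these changes was not tested. Signals near or below the constant of 10.5 give shrunken differences, and the 2 arrays at day 7 limit every test.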
